A study of Arabidopsis thaliana with 20 samples.

Results

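The transcripts described here are 8 of the 28775 genes in the gene count tables. They were chosen by name, as textbook targets of a pair of related plant microRNAs, by a rule that uses no measured value, although earlier results of these data were known. The 5 targets of miR319 are TCP2 (AT4G18390), TCP3 (AT1G53230), TCP4 (AT3G15030), TCP10 (AT2G31070) and TCP24 (AT1G30210). The 3 targets of miR159 are MYB33 (AT5G06100), MYB65 (AT3G11440) and MYB101 (AT2G32460). All 8 passed the filter on low counts in every assay.

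Plant microRNAs pair with nearly their whole length to a target transcript, and the Argonaute protein that carries them can cut it within the paired stretch. The 3′ fragment left behind starts with an uncapped end, and on some targets an RNA-dependent RNA polymerase turns fragments into double-stranded RNA from which secondary small interfering RNAs (siRNAs) are made on both strands. miR159 and miR319 have closely related sequences but act mainly on different families. miR319 acts on CINCINNATA-type TCP transcription factors, which move leaf and petal cells from division towards differentiation. miR159 acts on GAMYB-type factors, which work downstream of gibberellin in the anther and the seed, and MYB33 and MYB65 act redundantly in the tapetum, the layer that feeds developing pollen.

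RNA was taken from unopened flower buds of Arabidopsis thaliana at approximately 4 weeks of age, grown with 16 h of light and 8 h of dark. The 20 libraries form 10 groups of 2. Col-0, labelled wildtype, and dxo1 were each profiled by NAD capture, which enriches RNA that carries the cofactor NAD in place of the usual cap, by total RNA and by polyA RNA. For dxo1 there was also GMUCT, a method that sequences polyadenylated fragments from an uncapped 5′ end. Small RNA was read in Col-0, in dxo1 and in dxo1 rdr6. The enzyme DXO1 can take NAD caps off RNA, and RDR6 copies single-stranded RNA into the precursors of many siRNAs. The labels name no allele of either gene. They also leave unsaid whether buds were pooled and whether both libraries of a group are separate harvests, so p-values measure only the spread between libraries, which may be technical. Libraries held between 1144896 and 3178702 assigned counts in NAD capture, between 2576448 and 8309456 for total RNA, between 10100250 and 16833010 for polyA RNA, between 19769742 and 30883266 for GMUCT, and between 137603 and 4087476 for small RNA.

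Some libraries stood apart. Levels are in CPM, each count scaled to the size of its library. DXO1 itself was measured at 501 CPM in the polyA library labelled dxo1 replicate 1, at 19.4 in replicate 2, and at 48.6 and 49.2 in Col-0. Replicate 1 of dxo1 was also the high one in total RNA (612 against 11.0 CPM), GMUCT (1688 against 20.4) and small RNA (5040 against 17.2), but not in NAD capture (17.8 and 17.6). These values go against the label of a mutant, so "dxo1" below means the libraries labelled dxo1, and the main results that use them are also given without replicate 1. In both dxo1 rdr6 small RNA libraries every count was an even number (0 odd among 38514 and 43885 nonzero entries, against 65.2 to 76.9% odd in the others), and 92.1 and 88.0% of counts were 25 nt long, against 9.66 to 13.6% elsewhere. The shallowest library, small RNA of dxo1 replicate 2, held 137603 counts.

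Late pollen transcripts were lower in dxo1 than in Col-0. In polyA RNA all 5 late pollen markers measured fell, with a median log2 fold change of -1.89, and their summed level was 604 and 585 CPM in Col-0 against 219 and 99.7 CPM in dxo1. Of 9 tapetum markers 3 fell, near the 30.1% of all genes called, with a median of -0.18 and a highest value of 0.82, and their sum was 1218 and 1254 CPM against 702 and 460 CPM. No late pollen marker was at 0 in the polyA libraries, and 1 tapetum marker was at 0 in 1 Col-0 library. Of 4 green tissue markers, which sample other cells of the bud, 1 fell, and their sum lay between 10881 and 12082 CPM in all 4 libraries. In bulk tissue, fewer cells of a type and less RNA per cell cannot be told apart. These values stand beside every comparison of the anther-expressed MYB genes below, and their part in those results was not tested.

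In polyA RNA the 5 miR319 targets differed little between genotypes. Levels are CPM after scaling within the 4 polyA libraries, and levels of different genes are not compared because gene lengths were not used. TCP4, which activates the jasmonate gene LOX2, was measured at 48.1 and 39.3 CPM in Col-0 and 40.1 and 49.7 CPM in dxo1. TCP2 was at 39.4 and 36.3 CPM in Col-0 and 37.9 and 39.6 CPM in dxo1. TCP3, known to restrain the CUC boundary genes, was at 33.2 and 28.8 CPM against 30.8 and 34.5 CPM. In these 3 genes the libraries of both genotypes overlapped. TCP10 was at 22.4 and 26.3 CPM in Col-0 and 24.7 and 19.3 CPM in dxo1, and TCP24 at 25.9 and 26.45 CPM against 24.2 and 31.1 CPM, again with overlapping libraries. The log2 fold changes of the 5 TCP genes lay between -0.15 and 0.08 (median 0.04) and none passed the test (edgeR quasi-likelihood F test, adjusted p at most 0.05 over 19730 genes).

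Of the miR159 targets, MYB101 fell in polyA RNA. MYB101, which with its close relatives directs pollen tube differentiation, was measured at 31.2 and 34.0 CPM in Col-0 and 25.3 and 18.0 CPM in dxo1, so both dxo1 libraries lay below both Col-0 libraries. Its level was 1.502-fold lower in dxo1 (log2 fold change -0.59, SE 0.162, edgeR adjusted p = 0.0344). MYB33 was at 22.7 and 23.7 CPM in Col-0 and 22.2 and 19.99 CPM in dxo1. MYB65 was at 7.77 and 7.54 CPM against 7.197 and 6.90 CPM. The dxo1 libraries of MYB33 and MYB65 also lay below those of Col-0, by log2 differences of -0.14 and -0.12 that did not pass. Thus 1 of the 8 transcripts was called, where 30.1% of all 19730 genes were (median log2 fold change 0.01). Without the high-DXO1 library of dxo1, MYB101 was lower by -0.87 on the log2 scale (adjusted p 1.16e-09) and TCP10 also passed, at -0.35 (adjusted p 0.0261), in a fit that called 44% of 20088 genes. The MYB101 call was lost when either Col-0 library was left out, with an adjusted p of 0.154 without replicate 1 and 0.216 without replicate 2.

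Total RNA gave no call among the 8. All 8 log2 fold changes of dxo1 over Col-0 were below 0, from -1.13 to -0.11, with a median of -0.29 against -0.00 over all 17718 genes tested, of which 0.988% were called. MYB101 was again the lowest, at 21.6 and 20.1 CPM in Col-0 and 5.55 and 12.6 CPM in dxo1 (log2 fold change -1.13, SE 0.410, edgeR adjusted p = 0.220). MYB65 was at 12.0 and 9.80 CPM in Col-0 and 6.72 and 5.71 CPM in dxo1 (-0.84, SE 0.351, adjusted p = 0.289). For both MYB genes the dxo1 libraries lay below those of Col-0, but the differences did not pass. MYB101 did pass when the 4 total RNA libraries were fitted alone (adjusted p 0.0183) and when no filter on low counts was used (adjusted p 0.0125). Without dxo1 replicate 1, MYB101 was at -0.73 (adjusted p 0.900) and MYB65 at -0.94 (adjusted p 0.809), and edgeR called no gene, with 1288 at an unadjusted p under 0.05. Late pollen markers summed to 260 and 244 CPM in Col-0 and 115 and 63.8 CPM in dxo1 in the same libraries, and tapetum markers to 915 and 909 CPM against 280 and 366 CPM.

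**Figure D1:**
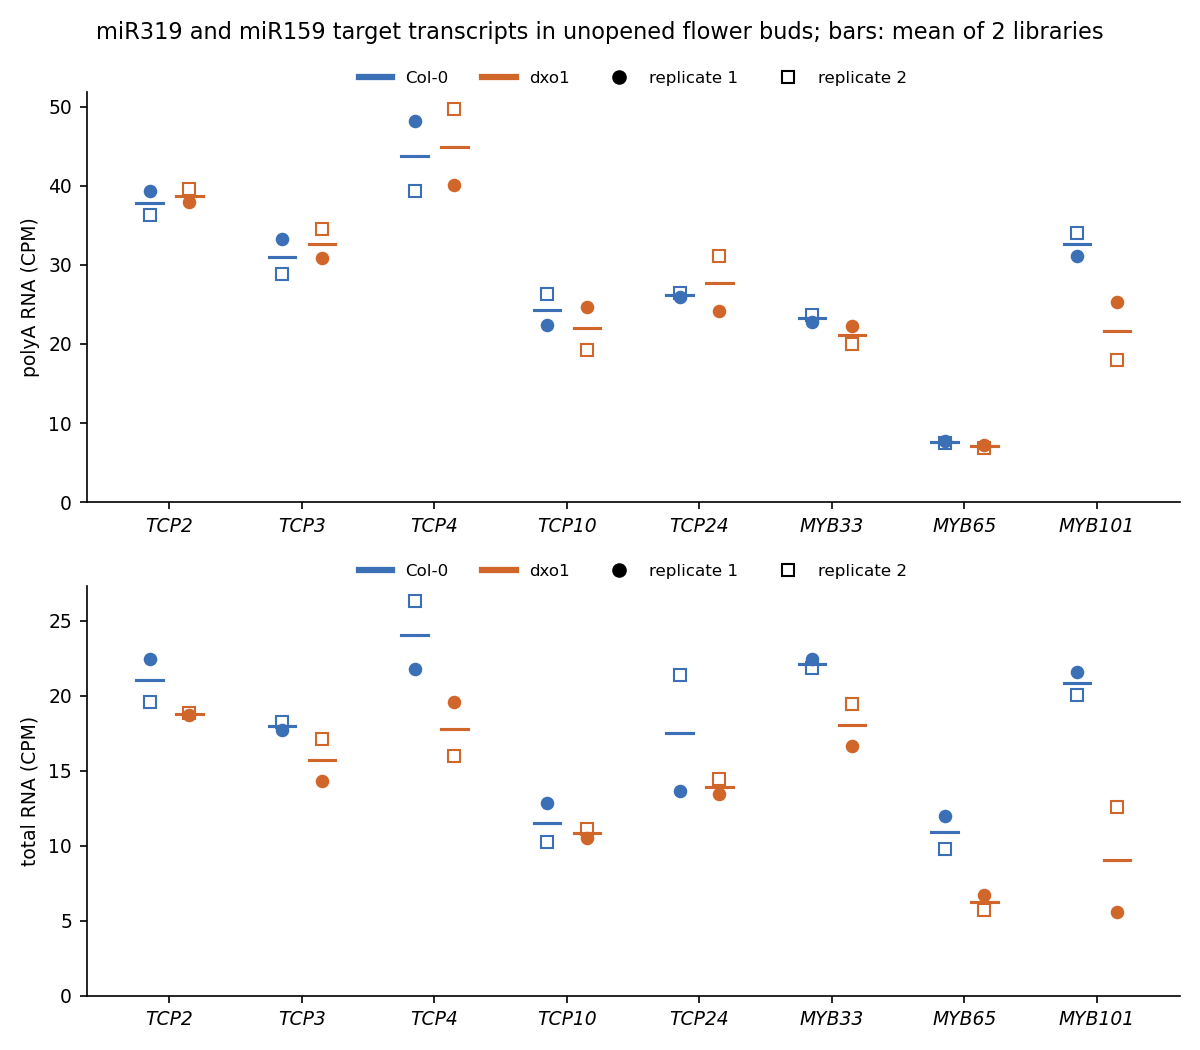
Level of each of the 8 transcripts in CPM in polyA RNA and in total RNA, with 1 point per library (Col-0 in blue, dxo1 in orange, filled circles for replicate 1, open squares for replicate 2) and a bar at the mean of 2. The TCP points of both genotypes overlap in polyA RNA, whereas MYB101 lies at 31.2 and 34.0 CPM in Col-0 and at 25.3 and 18.0 CPM in dxo1.

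The TCP family also has members without a miR319 site. The class I and CYC/TB1 TCP genes, which include growth-promoting relatives, had 6 of 13 tested members higher in dxo1 polyA RNA and none lower (median 0.21). Over all 19730 genes 30.1% were called, 3075 genes higher and 2857 lower. TCP9 had the lowest p among them and rose from 20.5 and 21.2 CPM to 66.9 and 59.6 CPM (log2 fold change 1.60, edgeR adjusted p = 5.99e-04). TCP8 rose by 0.70 (adjusted p 0.00238), TCP21 (AT5G08330) by 0.91 and TCP11 (AT2G37000) by 2.14 on the log2 scale. In total RNA TCP9 was the only one of 10 called, at 1.44, where 0.988% of all genes were called. The CINCINNATA-type genes without a miR319 site, TCP5, TCP13 and TCP17, had log2 values from -0.67 to -0.47 in polyA RNA and none of the 3 passed.

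Among genes downstream of the TCP factors, 3 of 14 rose and 1 fell in polyA RNA (median 0.33), a share near the 30.1% called over all genes. GRF4 and GRF3, growth factors that promote cell division, rose by 0.63 and 0.61, and CUC2, a boundary gene, by 0.66 on the log2 scale, while ARR16, a cytokinin response regulator, fell by 0.78. LOX2, AS1 and IAA3, which TCP factors activate, did not pass. CP1, a cysteine protease gene downstream of GAMYB factors, was at 32.9 and 34.8 CPM in Col-0 and 24.1 and 35.4 CPM in dxo1 and did not pass in any of the 9 comparisons. Of 9 gibberellin signalling genes, the F-box gene SLY1 (0.40), whose protein targets DELLA proteins for degradation,, and the DELLA repressor genes GAI (0.29) and RGL2 (0.40) rose and RGL3 fell (-0.60). Of 7 genes of microRNA production and fragment decay, HYL1 and SE, partners of the processing enzyme DCL1, rose by 0.93 and 0.52 and none fell. No gene of these 4 lists passed in total RNA, where only 0.988% of all genes were called. Of 5 other GAMYB-like genes, MYB81 alone was tested in polyA RNA, at 0.50 without passing, and it was lower in GMUCT than in polyA RNA of dxo1, at -2.91.

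NAD capture asked which transcripts were richer or poorer in the captured fraction than in total RNA of the same genotype. MYB33 was poorer in both genotypes. It was measured at 6.98 and 9.07 CPM in NAD capture and 22.4 and 21.8 CPM in total RNA of Col-0 (log2 ratio -1.40, SE 0.389, edgeR adjusted p = 0.0265). In dxo1 it was at 6.57 and 2.26 CPM in NAD capture and 16.7 and 19.4 CPM in total RNA (-1.89, SE 0.366, adjusted p = 0.00347). All 4 captured values lay below all 4 total RNA values, on counts of only 6 and 22 in the Col-0 captures and 28 and 5 in those of dxo1. Scaled by library totals alone, MYB33 passed in neither genotype, at -1.07 in Col-0 (edgeR adjusted p 0.162) and -1.24 in dxo1 (0.0662). The medians over all genes were then 0.37 and 0.72.

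The TCP genes had log2 capture ratios above 0 in 9 of 10 cases, but few passed. These cases are 5 genes in both genotypes, and the medians over all genes were also above 0, at 0.06 and 0.04. Against polyA RNA in place of total RNA, TCP10 in Col-0 (-0.31) and TCP4 in dxo1 (-0.21) changed sign. TCP10 was at 26.7 and 26.6 CPM in NAD capture of dxo1 and 10.5 and 11.1 CPM in total RNA (log2 ratio 1.29, SE 0.279, adjusted p = 0.00583, edgeR). TCP3 was at 25.6 and 32.0 CPM against 14.3 and 17.1 CPM in dxo1 (0.84, SE 0.236, adjusted p = 0.0186). In Col-0 TCP10 was at 18.6 and 9.90 CPM in capture and 12.8 and 10.2 CPM in total RNA, overlapping. TCP4 in Col-0 spread from 60.5 to 25.99 CPM between the capture libraries, against 21.8 and 26.3 CPM in total RNA, and its ratio of 0.75 (SE 0.353, adjusted p = 0.144) did not pass. TCP24 likewise spread, from 41.9 to 18.1 CPM in Col-0 capture, with 13.7 and 21.4 CPM in total RNA. TCP2 had log2 ratios of -0.29 in Col-0 and 0.39 in dxo1, neither of which passed.

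MYB65 and MYB101 did not pass in either genotype, with log2 ratios between -0.34 and 0.38. With polyA RNA as the reference in place of total RNA, MYB65 in Col-0 was called higher (1.22, adjusted p 0.0352) and MYB33 in Col-0 lost its call (-0.82, adjusted p 0.127). In all, 1 of the 8 transcripts was called in Col-0, where 24.2% of 17718 genes were, and 3 of 8 in dxo1, where 36.5% were. The medians of the 8 were 0.11 and 0.43, against 0.06 and 0.04 over all genes. The difference between genotypes in the capture ratio was called for none of the 8 and for 0% of all genes, 1332 of which had an unadjusted p under 0.05 in edgeR, and DESeq2 called 16. TCP10 had the widest difference of the 8, at 1.16 (SE 0.438, adjusted p = 0.643). MYB33 in dxo1 kept its call when any 1 of the 4 dxo1 libraries was left out in turn. TCP10 lost its call without NAD capture replicate 1 (adjusted p 0.0579) or total RNA replicate 2 (0.0612) of dxo1. MYB33 in Col-0 lost its call without either Col-0 total RNA library (adjusted p 0.139 and 0.104), and TCP3 without any 1 of the 4 dxo1 libraries (adjusted p 0.0582 to 0.130). Without both replicate 1 libraries of dxo1, no gene was called in dxo1 by edgeR (3856 had an unadjusted p under 0.05), and the ratios of MYB33, TCP10 and TCP3 were -3.09, 1.25 and 0.90. The genotype difference of MYB33 was then -1.67, against -0.49 with them, without passing in either fit.

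**Figure D2:**
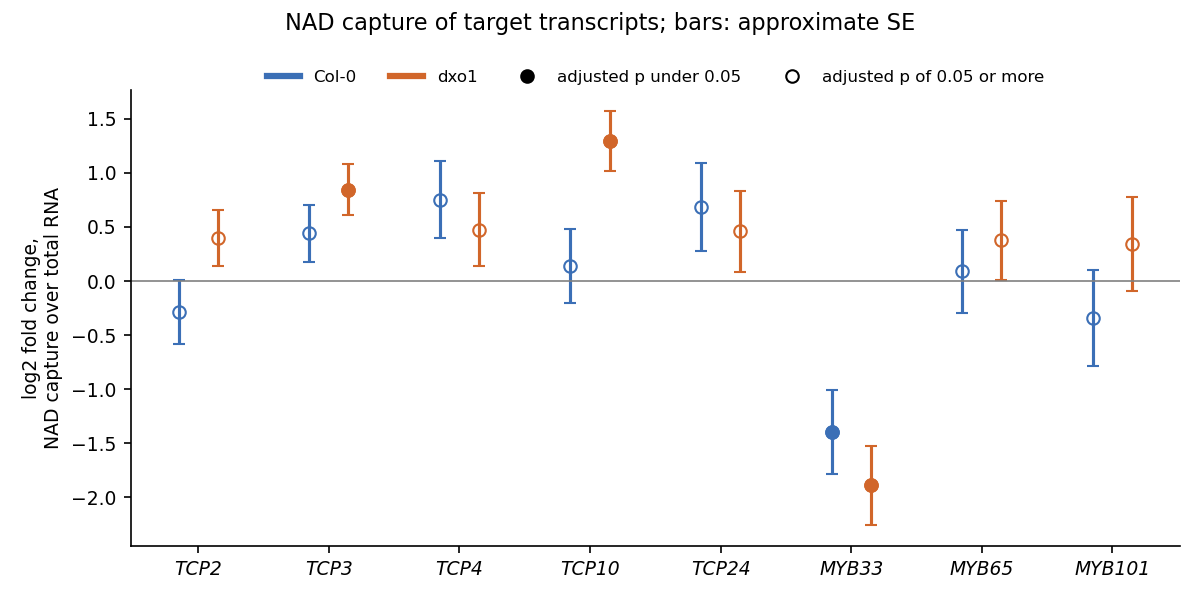
Log2 ratio of NAD capture to total RNA for each of the 8 transcripts in Col-0 and dxo1, with bars of 1 SE and filled points where the edgeR adjusted p was under 0.05. MYB33 lies at -1.40 and -1.89 and is filled in both genotypes, while TCP10 (1.29) and TCP3 (0.84) are filled in dxo1.

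The microRNA genes themselves were scarcely read. MIR159A, MIR159B, MIR159C, MIR319A, MIR319B and MIR319C had at most 25 counts summed over the libraries of a group. MIR159B was the only one that passed the filter on low counts, and only in the NAD capture fit. It had 7 counts in Col-0 capture against 1 in total RNA, and 25 against 3 in dxo1. The capture to total RNA ratio of its library-scaled counts was 14.8 in Col-0 (95% interval 1.90 to 665, counting error only) and 13.4 in dxo1 (4.09 to 69.4). edgeR called both, with adjusted p values of 0.0463 and 0.00508. In polyA RNA MIR159B had 21 counts in Col-0 and 18 in dxo1, and MIR319B 12 and 11.

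Targets of other conserved microRNAs, such as the SPL, ARF and HD-ZIP III families, were described in the same fit for comparison. Of 39 tested, 3 were higher and 13 lower in NAD capture of Col-0 (median -0.66), where 24.2% of all genes were called. In dxo1 3 were higher and 14 lower (median -0.34), where 36.5% of all genes were called. PHB, which specifies the upper leaf side, was at -2.19 in Col-0, and ARF10, an auxin response factor, at -1.81. Of 7 genes of microRNA production and fragment decay, SE, AGO1 and HST were lower in capture of Col-0 and none was higher. Their log2 ratios were -1.36, -1.44 and -1.11. In dxo1 4 of the 7 were lower and none was higher.

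GMUCT reads against polyA RNA of dxo1 asked how many uncapped or cleaved 5′ ends each transcript had for its polyadenylated level. Of the 8 transcripts 6 had higher GMUCT levels than polyA levels and 2 had lower ones. Over all 20117 genes 64.8% were called, 6585 genes higher and 6447 lower. GMUCT and polyA RNA are different library methods, so an effect of method and a difference in uncapped ends cannot be told apart here. Values here are CPM scaled over the 2 GMUCT and 4 polyA libraries, so the polyA values differ slightly from those above. MYB65 stood highest over its polyA level, at 19.6 and 20.4 CPM in GMUCT and 7.003 and 6.74 CPM in polyA RNA, a 2.90-fold difference (log2 ratio 1.54, SE 0.143, edgeR adjusted p = 4.64e-05). TCP24 was at 56.6 and 56.7 CPM in GMUCT against 23.6 and 30.4 CPM (1.07, SE 0.132, adjusted p = 1.99e-04). TCP10 was at 45.2 and 40.1 CPM against 23.998 and 18.8 CPM (0.99, SE 0.151, adjusted p = 6.27e-04). In these 3 genes the GMUCT libraries lay well apart from the polyA libraries.

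TCP2 was at 66.1 and 82.2 CPM in GMUCT and 36.9 and 38.7 CPM in polyA RNA (0.97, SE 0.130, edgeR adjusted p = 3.06e-04). TCP4 was at 74.3 and 70.9 CPM against 39.0 and 48.5 CPM (0.73, SE 0.142, adjusted p = 0.00232). MYB33 was at 33.8 and 39.0 CPM against 21.6 and 19.5 CPM (0.82, SE 0.124, adjusted p = 5.99e-04). TCP3 and MYB101 went the other way, with no overlap between libraries. TCP3 was at 22.8 and 24.3 CPM in GMUCT and 30.0 and 33.7 CPM in polyA RNA (-0.44, SE 0.124, adjusted p = 0.0150). MYB101 was at 15.7 and 12.4 CPM against 24.6 and 17.6 CPM (-0.58, SE 0.188, adjusted p = 0.0260).

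**Figure D3:**
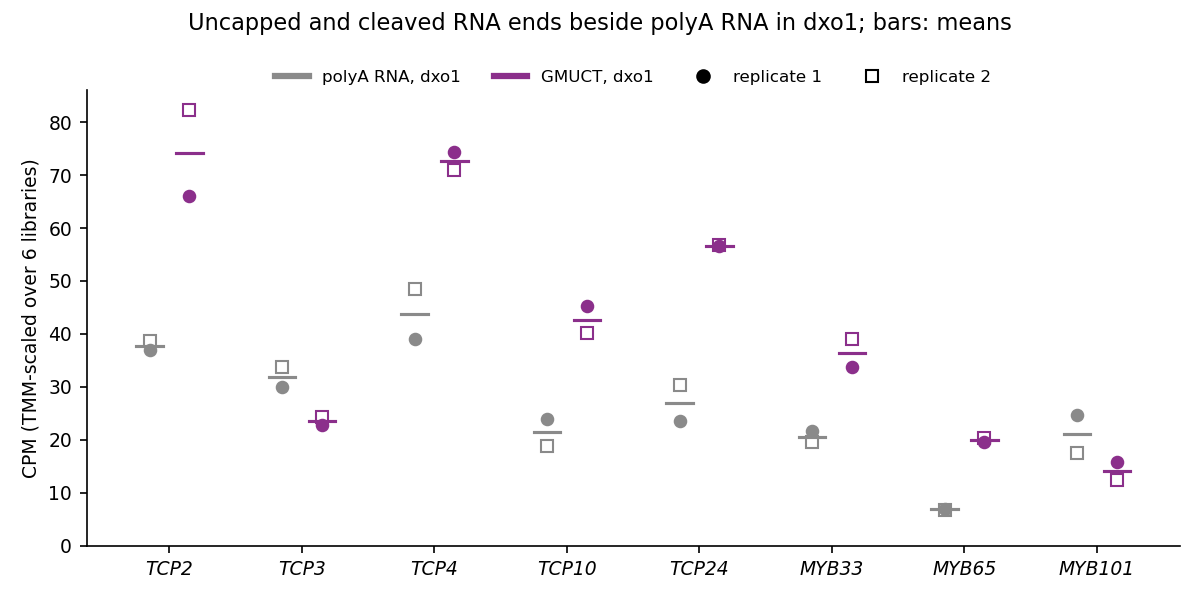
CPM of each of the 8 transcripts in the dxo1 polyA libraries (grey) and the dxo1 GMUCT libraries (purple), 1 point per library, scaled over 6 libraries. GMUCT points lie above polyA points for 6 transcripts and below them for TCP3 and MYB101.

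Both target families held members of either direction. The median of the 5 TCP genes was 0.97 and that of the 3 MYB genes 0.82, against 0.00 over all 20117 genes, of which 64.8% were called. GMUCT was not run on Col-0 in the libraries used here, so no genotype is compared. The tables count fragments per gene without positions, so ends at the microRNA site cannot be told apart from other uncapped ends. All 6 higher calls were kept without the replicate 1 polyA and GMUCT libraries together, as were both lower ones. When 1 library at a time was left out, TCP3 lost its call without polyA replicate 2 (adjusted p 0.0855) or GMUCT replicate 1 (0.0523). MYB101 lost its call without polyA replicate 1 (0.176) or GMUCT replicate 2 (0.100), each at a log2 ratio still below 0.

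In polyA RNA the targets of other conserved microRNAs had 8 of 44 higher and 3 lower in dxo1 (median 0.06), where 30.1% of all genes were called. They were split evenly in GMUCT against polyA RNA, with 16 higher and 16 lower of 44 (median -0.06). That comparison called 64.8% of all genes, the share to set beside each GMUCT count that follows. TOE2, an AP2-type repressor of flowering, was at 3.44 and ARF10 at 1.99, whereas HB-8 was at -1.82 and ARF6 at -1.55 on the log2 scale. The class I and CYC/TB1 TCP genes gave 5 higher and 5 lower of 14, with TCP9 at -2.03, TCP15 at -1.49, TCP21 at -2.22 and TCP22 at -1.65. TCP5, TCP13 and TCP17, the CINCINNATA-type genes without the site, were at 0.69, 0.40 and 1.13 with none passing. Of 14 genes downstream of the TCP factors, 7 were higher, among them the cell cycle inhibitor gene KRP1 (2.45), GRF4 (1.37), IAA3 (1.57) and CUC3 (1.61), and 1 was lower. Of 9 gibberellin genes, 7 were lower, including RGA1 (-1.69), GAI (-1.40) and RGL2 (-1.85), and SLY1 was higher (1.03).

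The small RNA tables give counts per transcript by strand and length from 19 to 25 nt, which shows what kinds of small RNA matched each target. In Col-0 the TCP targets other than TCP24 carried mostly 21 to 22 nt small RNAs of both strands. TCP4 had 423 counts over both Col-0 libraries, 85.1% of them 21 or 22 nt and 63.6% antisense. TCP3 had 369 counts, 93.2% of them 21 or 22 nt and 50.1% antisense. TCP2 had 222 counts (86.5% of 21 or 22 nt, 60.8% antisense) and TCP10 143 counts (86.0% and 54.5%). TCP24 had 31 counts, 38.7% of them 21 or 22 nt. For comparison, 18.5 and 19.8% of all counts in the Col-0 libraries were 21 or 22 nt long, and the most common length was 24 nt.

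MYB33 and MYB101 had a different profile in Col-0, nearly all antisense, concentrated in 20 and 21 nt for MYB33 and in 21 nt for MYB101. Of 457 counts on MYB33 in Col-0, 96.1% were antisense, and antisense 20 and 21 nt counts (108 and 312) made up 91.9% of the total. The antisense share was 96.7 and 95.9% in the libraries taken singly. MYB101 had 83 counts, of which 92.8% were antisense and 69 were antisense 21 nt counts. MYB65 had 42 counts on both strands (47.6% antisense). In dxo1 the antisense share was 95.4% of 263 counts on MYB33, 71.7% of 53 on MYB101 and 56.2% of 774 on TCP3. A microRNA that pairs with a transcript reads as antisense to it, and so does the antisense strand of an siRNA. The tables hold no positions, so these cannot be told apart, and no reads of the MIR159 or MIR319 loci themselves are in the small RNA tables used here.

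**Figure D4:**
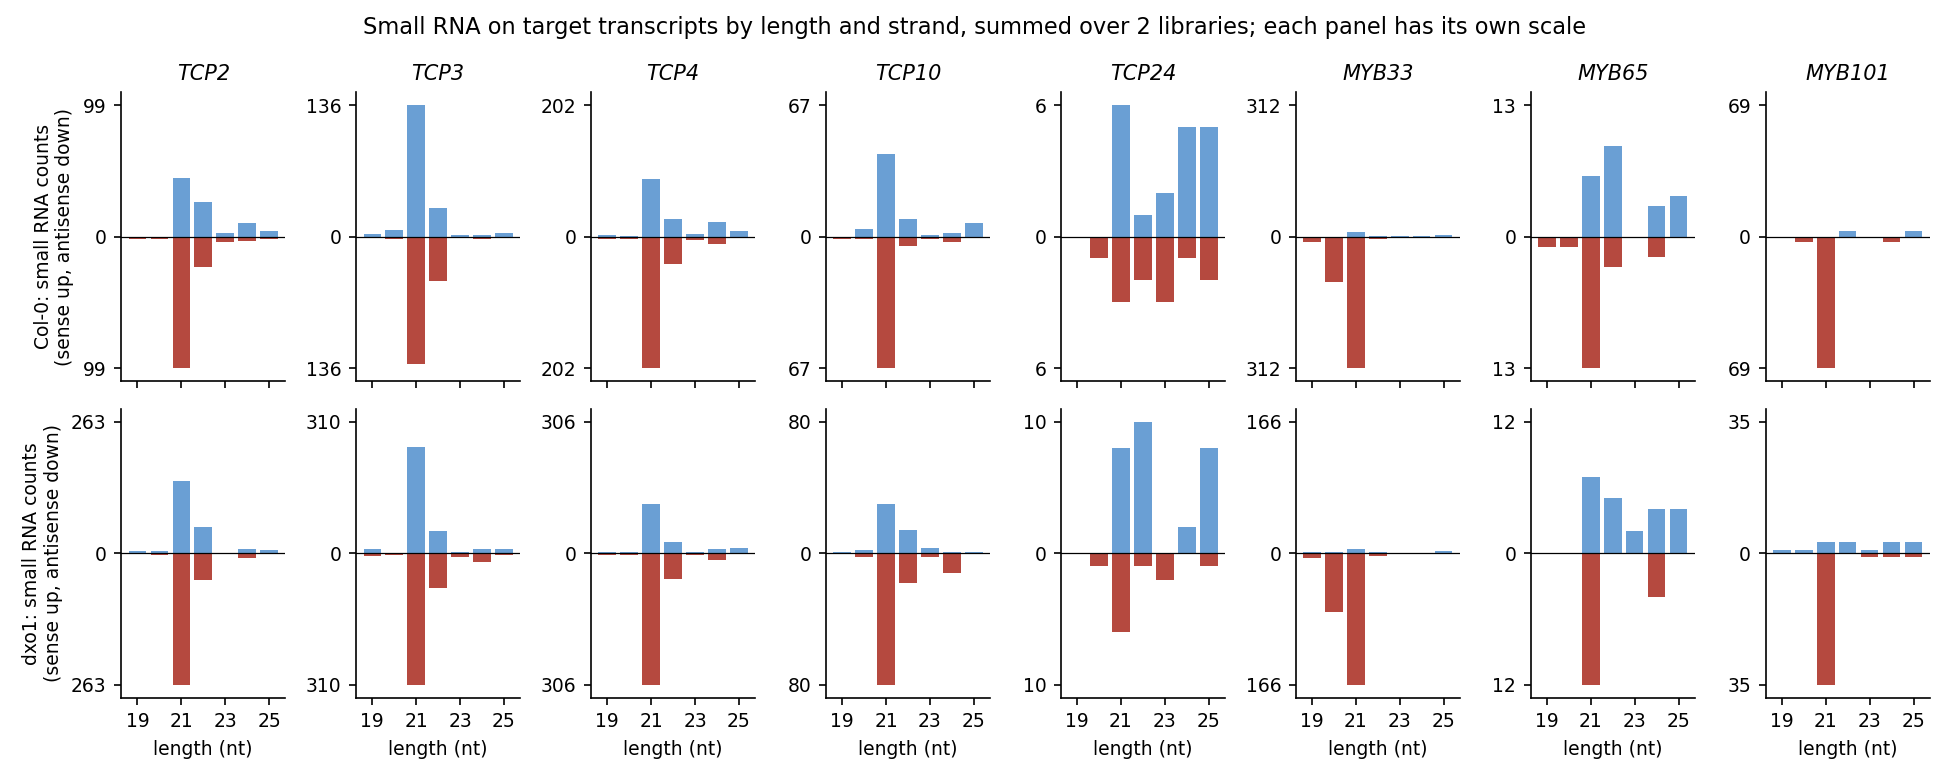
Small RNA counts by length (19 to 25 nt) on the sense and antisense strands of the target transcripts, summed over 2 libraries, with Col-0 in the upper and dxo1 in the lower row and a separate scale for each panel. TCP2, TCP3, TCP4 and TCP10 show 21 nt counts on both strands, whereas MYB33 shows antisense 20 and 21 nt counts almost alone.

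Between dxo1 and Col-0, no target was called on small RNAs of all lengths, and 5.31% of 15358 transcripts were. This fit shares its scaling with the dxo1 rdr6 libraries, whose length profile stood apart, and its median over all transcripts was -0.31. The following levels are CPM taken over the 21 and 22 nt counts of a library alone, without that scaling. TCP2 had 139 and 191 CPM in Col-0 against 562 and 441 in dxo1. TCP3 had 303 and 323 in Col-0 against 766 and 558 in dxo1. Both were higher in both dxo1 libraries, although dxo1 replicate 2 rests on 15 counts for TCP2 and 19 for TCP3.

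TCP4 had 321 and 337 CPM in Col-0 and 558 and 352 in dxo1, and TCP10 128 and 109 against 152 and 206, with dxo1 above Col-0 in each but by little in 1 library. MYB33 and MYB101 lay lower in both dxo1 libraries. MYB33 had 230 and 331 CPM in Col-0 and 196 and 58.7 in dxo1, and MYB101 72.9 and 64.4 against 44.0 and 58.7. Replicate 2 of dxo1 rests here on 2 counts for each gene. As raw 21 and 22 nt counts in the same library, MYB33 and TCP3 had 63 and 83 in Col-0 replicate 1, 267 and 261 in replicate 2, 174 and 678 in dxo1 replicate 1, and 2 and 19 in dxo1 replicate 2. Within a library these pairs do not depend on scaling. The pair was chosen after its values were seen, and MYB33 was also the smaller of the pair in Col-0 replicate 1.

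Over all lengths and all counts of a library, the TCP genes lay higher in dxo1 and MYB33 did not lie lower. Transcripts in general lay higher in dxo1 on this scale. In the fit scaled by library totals alone, the median log2 fold change over all transcripts was 0.53 and 88.0% of calls were higher. The levels below include that general shift. In that fit TCP2 was higher by 1.94 (edgeR adjusted p 4.52e-06) and TCP3 by 1.55 (4.94e-04), where 9.76% of 15358 transcripts were called. No other target passed there, with TCP4 at 0.95 and TCP10 at 0.84. TCP2 was at 29.0 and 43.8 CPM in Col-0 and 148 and 131 CPM in dxo1. TCP3 was at 58.6 and 69.0 CPM against 208 and 153 CPM, and TCP4 at 67.4 and 79.0 CPM against 151 and 124 CPM, without overlap in these 3 genes. MYB33 was at 62.0 and 89.3 CPM in Col-0 and 69.8 and 72.7 CPM in dxo1, which overlap. Of its 10 counts in dxo1 replicate 2, 7 were antisense 20 nt counts, a length that the 21 and 22 nt class leaves out.

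A fit of the 4 Col-0 and dxo1 libraries on 21 and 22 nt counts, added after the values had been seen, called 4 of the 8. TCP2 was higher by 1.23 on the log2 scale (edgeR adjusted p 0.00607) and TCP3 by 0.74 (0.0429), and MYB33 and MYB101 were lower, at -1.08 (0.0327) and -0.94 (0.0136). In that fit 50.9% of 3678 transcripts were called. With all 6 libraries on 21 and 22 nt, MYB33 (-1.69) and MYB101 (-1.48) were lower and TCP2 (0.67) and TCP3 (0.17) did not pass. That fit called 54.3% of 1928 transcripts, with a median of -0.67, so 2 calls among the 6 targets tested lie below the background share. In the fit of all lengths without dxo1 replicate 1, MYB33 alone passed, at -1.99 (adjusted p 0.0343), and TCP2 and TCP3 were at -0.12 and -0.66. The median over all transcripts was -1.10 there and 6.66% were called, so TCP2 and TCP3 lay above the median. TCP2 and TCP3 were thus called in some of these fits and not in others. In the fit of all 6 libraries on all lengths, 5 of 9 class I and CYC/TB1 TCP genes, without a miR319 site, were higher and none lower. That fit called 5.31% of 15358 transcripts, and these TCP relatives were not refitted without dxo1 replicate 1. TCP9 was at 2.68 and TCP15 at 1.67.

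**Figure D5:**
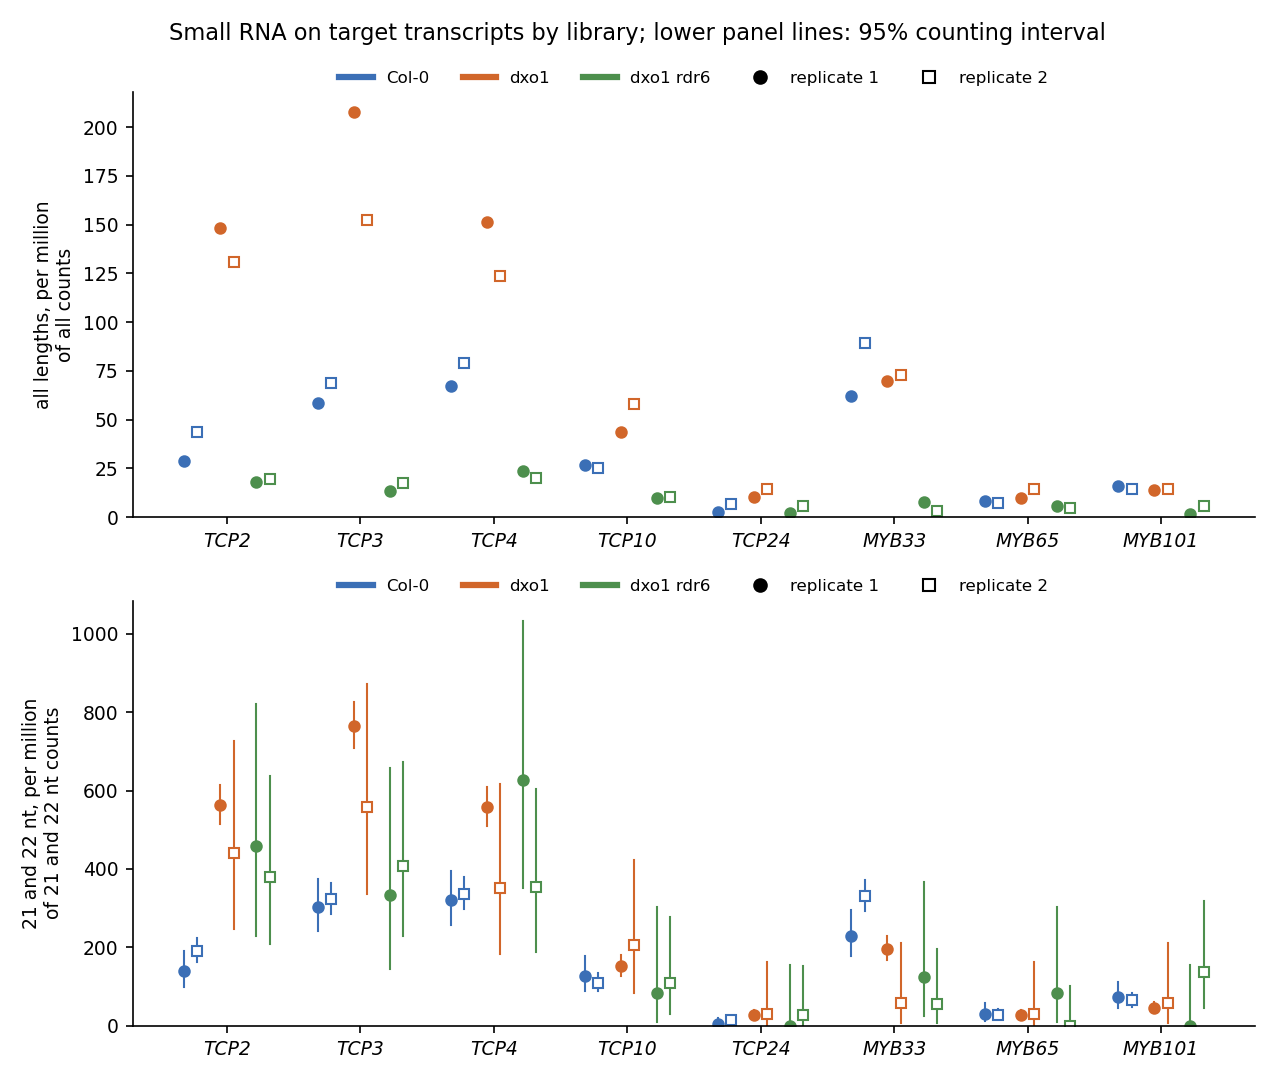
Small RNA on each target transcript by library in Col-0, dxo1 and dxo1 rdr6, as CPM of all lengths (upper) and as 21 and 22 nt counts in CPM of that length class (lower, with 95% counting intervals, taken from counts divided by 2 in dxo1 rdr6). In the lower panels TCP2 lies at 139 and 191 in Col-0 and at 562 and 441 in dxo1, and MYB33 at 230 and 331 against 196 and 58.7.

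In dxo1 rdr6, small RNA of all lengths on the targets was lower than in dxo1 for all 8 transcripts, where 36.2% of all transcripts were called. The log2 fold changes ranged from -3.73 for MYB33 to -1.26 for MYB65, with a median of -2.50 against 0.09 over all transcripts. Among all transcripts tested, these ends of the range stood at percentiles 9.26 and 24.95. Of 9 class I and CYC/TB1 TCP genes 7 were also lower. Of 41 targets of other conserved microRNAs 21 were lower and 1 was higher. Against Col-0, 7 of 8 were lower, from -4.87 for MYB33 upwards, where 31.8% were called, and TCP24 did not pass (-1.42, edgeR adjusted p = 0.0543). In that comparison 22 of 41 targets of other conserved microRNAs were lower, and 0 of 9 class I and CYC/TB1 TCP genes, with 1 higher. Without dxo1 replicate 1, 4 of 8 were lower in dxo1 rdr6 than in dxo1 (TCP2, TCP3, TCP4 and MYB33), in a fit that called 10.6% of transcripts.

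In the dxo1 rdr6 libraries 25 nt counts took up most of each library, so the comparison was repeated by length. On 21 and 22 nt alone, none of the 6 targets tested was called between dxo1 rdr6 and dxo1, where 27.7% of 1928 transcripts were. TCP2 had 459 and 380 CPM of 21 and 22 nt counts in dxo1 rdr6, TCP3 334 and 408, and TCP4 626 and 353. TCP10 had 83.5 and 109, on 4 and 8 counts. Thus TCP2 and TCP4 overlapped the dxo1 libraries, and TCP3 and TCP10 lay below them. MYB33 had 125 and 54.3. Against Col-0 on these lengths, MYB33 alone of the 6 was called, at -2.67 (edgeR adjusted p 0.00210), where 61.7% of transcripts were called and the median was -0.65. The dxo1 rdr6 values rest on few counts, all even, for example 22 and 28 of 21 and 22 nt on TCP2 and 6 and 4 on MYB33. On 19 to 24 nt, an alternative added after the values had been seen, 4 of 6 targets tested were lower in dxo1 rdr6 than in dxo1 (TCP2, TCP3, TCP10 and MYB33), where 38.1% of 4569 transcripts were called and the median was -0.65. MYB104, a GAMYB relative outside the 8, had 68 and 205 counts of all lengths in Col-0, 135 and 6 in dxo1 and 2 and 10 in dxo1 rdr6, and was lower in dxo1 rdr6 than in Col-0 (log2 fold change -5.57).

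Across the 14 NAD capture, total RNA, polyA and GMUCT libraries the 8 transcripts did not form 1 pattern. Only genes with a symbol, out of 19280 genes, were ranked. Among them TCP4 varied most like RHF1A, a ubiquitin ligase gene of gamete formation (Pearson r of log2 CPM 0.936). Next came DET1, a repressor of light development (0.922), and TCP24 (0.914). MYB33 varied most like RSH1, a chloroplast ppGpp enzyme gene (0.946), CIA2, a factor for chloroplast protein import genes (0.946), and ISA1, a starch debranching enzyme gene (0.944). TCP3 had an r of -0.90 with MYB33, while TCP4 had -0.0055. These correlations mix assays with different depths and kinds of RNA, and are given as a description.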

How the data were processed

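Counts per gene were deposited as raw whole numbers. Per the submitters' processing notes, the authors used cutadapt, STAR 2.4.2a and HTSeq with the TAIR10 build, without settings. Extraction used Qiazol and miRNeasy columns, and reads were 50 nt, single and stranded, per the labels. The 5 HTSeq entries that name no gene were left out. Their share of counts was 91.8 to 96.1% for NAD capture, 90.8 to 91.2% for total RNA, 20.3 to 21.8% for polyA RNA and 18.2 to 28.3% for GMUCT. The small RNA tables, as deposited, hold counts per transcript, strand and length, and no source used here names their counting tool. The strand columns were read as sense and antisense because most transcripts with at least 20 counts of 25 nt had over 90% of these in the same column (71.1 to 94.2% of them).

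Counts were tested in R 4.3.3 with edgeR 4.0.16 (filterByExpr at a minimum count of 10, TMM factors, quasi-likelihood F test, two-sided, Benjamini-Hochberg adjustment over all genes tested, threshold 0.05). The fits held the 8 NAD capture and total RNA libraries, the 4 polyA libraries, the GMUCT libraries with all polyA libraries, and the 6 small RNA libraries. They left 4, 2, 3 and 3 residual degrees of freedom and gave 9 comparisons. Standard errors are the log2 fold change divided by the square root of F. Correlations used log2 CPM with a prior count of 2. Intervals are exact, at 95%, and cover counting error only, since reads without molecular identifiers are not independent molecules.

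The members and lists were chosen with earlier results of these data known. All 8 members are named, with every locus of both microRNAs. From each list up to 4 passing genes of lowest p are named (or, if none passed, 2 of highest level). The 3 genes most like TCP4 and MYB33 are those among genes with a symbol. All 127 listed identifiers matched RefSeq TAIR10.1, as did 28009 of 28775 genes, and no coordinate or sequence is given because no genome of the files' build was used here. A few genes were named after their values were seen, among them MYB104, LOX2, AS1 and IAA3.

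Libraries of a group differed beyond counting noise (chi-square per degree of freedom 2.26 to 33.7 where both libraries summed to 20 or more counts). Same-numbered libraries were not paired, since the replicate differences of same-assay groups correlated between -0.058 and 0.093 across genes and the labels give no shared origin. The exception was GMUCT and polyA RNA of dxo1, at 0.538, where a replicate block left the 6 higher and 2 lower target calls in place. The tests were run first on simulated data. Alternatives were other scalings (DESeq2 size factors, library totals), DESeq2 1.42.0, no filter, a replicate block, other references, libraries, lengths and strands, and each library left out in turn.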

Additional observations from a re-analysis of the deposited data

How the results depend on the processing

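Of 993 alternative values of the 8 targets, 769 kept their direction and their side of the threshold, 106 lost a call, 32 gained one and 86 changed sign, 60 of these with no call either way. Where the cause is not given by fewer libraries, fewer counts or fewer genes tested, the cause was not tested. With 2 libraries a group, a lone library left in a group is assumed to vary like the others. The 6 higher GMUCT calls held under every alternative run. A replicate block changed 1 call among the 8: 7 targets instead of 8 were lower in dxo1 rdr6 than in dxo1 (MYB65 lost). Over all genes it gave 19 calls in place of 175 in total RNA and 382 in place of 815 in small RNA of dxo1 over Col-0.

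The number of targets called, in either direction, changed as follows. The 5 called in NAD capture of dxo1 with library totals were all higher. That fit called 34% of 17718 genes, and MYB33 lost its call there (-1.24, edgeR adjusted p 0.0662). In NAD capture of Col-0, library totals called 14.5% of genes and DESeq2 17.5%. In small RNA of dxo1 over Col-0, library totals called 9.76% of transcripts, and the Col-0 and dxo1 libraries alone 15.8%. There the antisense, sense and 19 to 24 nt calls were all higher. In NAD capture of Col-0, 0 were called with DESeq2, with library totals and without the replicate 1 libraries of dxo1, and 0 to 3 when 1 library was left out. In NAD capture of dxo1, 5 were called with library totals, 0 without the replicate 1 libraries and 1 to 2 with 1 library left out. In polyA RNA 2 were called without dxo1 replicate 1 and 0 to 2 with 1 library left out. In total RNA 1 was called with no filter, where 4.41% of genes were, and 1 with total RNA libraries alone, where 14.1% were. Small RNA fits of dxo1 over Col-0 called 24% of all transcripts on 19 to 24 nt and 54.3% on 21 and 22 nt. They called 28.5% on antisense and 4.25% on sense counts. In the same order, dxo1 rdr6 over Col-0 gave 53.9, 61.7, 59.6 and 30.3%, with 58.3% on 24 nt. Over dxo1 it gave 38.1, 27.7, 42.6 and 29.3%, with 50.6% on 24 nt and 17.7% with DESeq2. The 24 nt call was TCP4, higher in both. For small RNA of dxo1 over Col-0, 2 were called on 19 to 24 nt, on 21 and 22 nt, in the Col-0 and dxo1 libraries alone and with library totals, 4 in those libraries alone at 21 and 22 nt, 3 on antisense counts, 1 on sense counts, 1 without dxo1 replicate 1, and 0 to 2 with 1 library left out. For dxo1 rdr6 over Col-0, 2 were called on 19 to 24 nt, 1 on 21 and 22 nt (also with halved counts), on 24 nt and on antisense counts, 4 on sense counts, and 1 to 8 with 1 library left out. For dxo1 rdr6 over dxo1, 4 were called on 19 to 24 nt, 0 on 21 and 22 nt (also with halved counts), 1 on 24 nt, 5 with DESeq2, 2 on antisense and 5 on sense counts, 4 without dxo1 replicate 1, and 0 to 8 with 1 library left out.

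The following log2 values changed sign. With library totals, which moved the median of all genes to 0.37 in Col-0 capture, 0.72 in dxo1 capture and 0.53 in small RNA of dxo1 over Col-0, TCP2 was at 0.056 and MYB101 at 0.019 in Col-0 capture, TCP4 at 0.21 and TCP24 at 0.24 in the genotype difference, and TCP4 at 0.95, TCP10 at 0.84 and MYB65 at 0.45 in small RNA of dxo1 over Col-0. The higher share of calls moved from 55.7 to 81.8% and from 50.3 to 88.9% in capture, and from 43.4 to 88.0% and 27.1 to 71.3% in small RNA of dxo1 and dxo1 rdr6 over Col-0. With polyA RNA as the reference, TCP10 in Col-0 was at -0.31, TCP4 and MYB101 in dxo1 at -0.21 and -0.18, and the difference of MYB65 at -0.38.

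For small RNA of dxo1 over Col-0, TCP4 and TCP10 were at 0.56 and 0.60 on 19 to 24 nt, at 0.44 and 0.37 in the 4 libraries alone (MYB65 0.022), at 0.20 and 0.080 there on 21 and 22 nt, at 0.013 and 0.024 with DESeq2 size factors and at 0.93 and 1.02 on antisense counts. TCP4 was at 0.32 on 24 nt. On sense counts TCP4, MYB65 and MYB101 were at 0.27, 0.21 and 1.42. Without dxo1 replicate 1, TCP2, TCP3 and TCP24 were at -0.12, -0.66 and -0.44. For dxo1 rdr6 over Col-0, TCP2 and TCP4 were at 0.57 and 0.11 on 19 to 24 nt, TCP2 at 0.40 on 21 and 22 nt and 0.48 with halved counts, TCP4 at 2.71 on 24 nt, and TCP2, TCP3 and TCP4 at 0.94, 0.62 and 0.13 on antisense counts. For dxo1 rdr6 over dxo1, MYB101 was at 0.061 on 19 to 24 nt and 0.48 on antisense counts, TCP4 and MYB101 at 0.013 and 0.82 on 21 and 22 nt and 0.040 and 0.95 with halved counts, and TCP4 at 2.39 on 24 nt. Targets with too few counts for a fit have no value there.

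With 1 library left out, some signs changed. In Col-0 capture TCP10 ranged from -0.27 to 0.64, MYB65 from -0.38 to 0.63 and MYB101 from -1.59 to 0.043, and in dxo1 capture MYB101 from -0.057 to 1.12. In the genotype difference TCP4 ranged from -0.86 to 0.36, TCP24 from -0.84 to 0.37 and MYB65 from -0.25 to 0.76. In polyA RNA TCP2 ranged from -0.025 to 0.082, TCP3 from -0.029 to 0.17, TCP4 from -0.11 to 0.19, TCP10 from -0.35 to 0.0069 and TCP24 from -0.11 to 0.24. In total RNA TCP10 ranged from -0.24 to 0.085 and TCP24 from -0.61 to 0.031. In small RNA of dxo1 over Col-0 TCP2 ranged from -0.12 to 1.62, TCP3 from -0.66 to 1.27, TCP4 from -1.16 to 0.61, TCP10 from -0.74 to 0.43 and TCP24 from -0.44 to 1.16. Against Col-0, dxo1 rdr6 ranged from -2.27 to 0.91 for TCP2 and -8.43 to 0.14 for MYB101. Against dxo1 it ranged from -6.74 to 1.15 for MYB101, -1.35 to 0.86 for MYB65, -3.19 to 0.18 for TCP4 and -4.24 to 0.25 for MYB33.

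Over all genes, counts of calls ranged over the alternatives from 670 to 8890 in polyA RNA, 0 to 2357 in total RNA, 0 to 1706 in the genotype difference, 11505 to 13946 in GMUCT, 721 to 7278 and 0 to 7371 in capture of Col-0 and dxo1, and 20 to 1872, 589 to 9704 and 155 to 7293 in small RNA of dxo1 over Col-0, dxo1 rdr6 over Col-0 and dxo1 rdr6 over dxo1. Depth limits the capture values of MYB33 and all values from dxo1 replicate 2 and dxo1 rdr6 small RNA.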
